A study of Mus musculus with 12 samples.

Results

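The nuclear genome encodes most subunits of the 5 complexes of mitochondrial oxidative phosphorylation, and their transcripts were followed in murine B cells before and after stimulation through Toll-like receptor 9. The subunits were chosen by name among the known genes of the expression table, with symbols that begin Ndufa, Ndufb, Ndufc, Ndufs or Ndufv and a digit (complex I), Sdha to Sdhd (complex II), Uqcr (complex III), Cox4 to Cox8 (complex IV) or Atp5 (complex V). Of 28019 entries, 84 matched, and 79 lay above 1 FPKM (fragments per kilobase of transcript per M mapped fragments, M being mega) in at least 3 of 12 libraries. These 79 were 36 of 37 names of complex I, all 4 of complex II, all 8 of complex III, 14 of 18 of complex IV and all 17 of complex V. The 5 left out were Cox8c, Cox8b, Cox7b2, Ndufa4l2 and Cox4i2, for which the third-highest values were 0, 0, 0.09, 0.09 and 0.26 FPKM. Just inside the limit stood Cox6b2, Atp5s and Cox7a1, for which the third-highest values were 3.02, 4.19 and 7.42 FPKM.

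The cells were splenic B cells of BALB/c mice at post-natal day 42 to 49, cultured for 24 h in RPMI-1640 with 10% fetal bovine serum. A control group and groups given 1 µM of a CpG oligodeoxynucleotide of class A, B or C had 3 libraries each, and total RNA was sequenced. All 3 classes are short synthetic DNAs with unmethylated CpG. Class A has a phosphodiester core with a palindrome and phosphorothioate G-rich ends, class B is a linear strand with a phosphorothioate backbone, and class C joins such a backbone to a palindrome. The labels name the class alone, with no sequence, and do not say what the control culture received. Whether a group holds separate cultures or animals is not stated either, so the p-values speak of the spread between libraries, which may be technical.

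Oxidative phosphorylation passes electrons from NADH (complex I) and succinate (complex II) through ubiquinone, complex III and cytochrome c to oxygen at complex IV. The protons pumped on the way drive ATP synthase, complex V. Nuclear subunits form these complexes together with subunits translated inside the mitochondrion, except for complex II, which is wholly nuclear. B cells that leave the resting state are known to enlarge their mitochondrial network.

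The 4 promoters printed next frame what follows. They belong to an ordinary subunit of complex IV (Cox6a1), an isoform first known from heart and skeletal muscle (Cox7a1), the complex II subunit that was not called against the control with all libraries (Sdha), and a gene of the rotor ring of ATP synthase (Atp5g3). Each runs from 250 bases before to 50 bases after the transcription start of RefSeq, in the build GRCm38.p6. Capitals mark a match, on either strand, to the letters GCGCA, any 1 base and GCGC (a site of NRF1, a factor known for its targets among respiratory genes), CCGGAAG (a site of ETS factors such as GABP) or CACGTG (an E-box, the site of MYC and related factors). ATGGCGGC, a site of YY1, was searched too. The windows lie at chr5:115348909-115349208 on the minus strand (Cox6a1), chr7:30183921-30184220 on the plus strand (Cox7a1), chr13:74350191-74350490 on the minus strand (Sdha) and chr2:73911277-73911576 on the minus strand (Atp5g3).
Cox6a1: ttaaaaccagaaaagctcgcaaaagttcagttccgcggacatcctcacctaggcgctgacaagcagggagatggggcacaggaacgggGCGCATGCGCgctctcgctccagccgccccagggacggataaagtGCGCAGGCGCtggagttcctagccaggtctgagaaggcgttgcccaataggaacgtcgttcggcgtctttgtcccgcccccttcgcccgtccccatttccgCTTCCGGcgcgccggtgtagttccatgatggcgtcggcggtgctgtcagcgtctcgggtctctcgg
Cox7a1: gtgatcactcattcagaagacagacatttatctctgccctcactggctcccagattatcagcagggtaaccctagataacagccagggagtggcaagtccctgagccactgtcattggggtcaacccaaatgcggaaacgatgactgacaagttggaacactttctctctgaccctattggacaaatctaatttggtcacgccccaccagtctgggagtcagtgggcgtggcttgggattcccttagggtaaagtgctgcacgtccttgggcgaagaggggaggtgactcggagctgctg
Sdha: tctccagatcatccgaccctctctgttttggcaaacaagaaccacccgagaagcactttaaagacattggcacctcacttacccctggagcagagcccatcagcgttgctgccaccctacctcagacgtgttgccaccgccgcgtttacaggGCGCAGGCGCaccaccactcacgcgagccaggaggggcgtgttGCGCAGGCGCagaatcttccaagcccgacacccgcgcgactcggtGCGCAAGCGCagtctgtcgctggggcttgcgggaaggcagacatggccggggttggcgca
Atp5g3: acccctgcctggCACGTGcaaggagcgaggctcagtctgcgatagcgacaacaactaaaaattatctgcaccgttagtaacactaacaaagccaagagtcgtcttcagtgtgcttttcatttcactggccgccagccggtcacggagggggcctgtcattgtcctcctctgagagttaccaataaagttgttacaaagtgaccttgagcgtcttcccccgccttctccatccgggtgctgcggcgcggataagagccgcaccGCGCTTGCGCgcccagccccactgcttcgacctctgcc

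Sdha held 3 NRF1 matches, Cox6a1 held 2 with 1 ETS match, Atp5g3 held 1 with 1 E-box, and Cox7a1 held none of the 4 motifs. A window was found for 67 of the 79 members. Of these, 17 held the NRF1 letters (25.4%), against 12.5% of 8830 known genes tested and 5.19% of all 27025 genes with a window. The ETS letters stood in 16 (23.9%, against 22.0% of known genes tested and 9.93% of all), and the YY1 letters in 7 (10.4%, against 6.21% and 2.60%). E-boxes stood in 7 (10.4%, against 12.1% and 8.09%), 5 of them among the 16 complex V members with a window and 2 among 32 of complex I. No matches of different motifs overlapped in the members' windows. A match describes the letters of the window and not binding. Members with no window included Atp5a1, Cox4i1, Cox6a2, Cox6c, Ndufa2, Ndufb9, Ndufs1, Sdhc, Uqcrb, Uqcrc2 and Uqcrq.

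Depth, estimated from the steps between low FPKM values, was 13.9 to 17.4 M fragments in the control libraries and 21.3 to 22.6, 24.4 to 24.9 and 24.7 to 25.3 M after CpG-A, CpG-B and CpG-C. For 76 members, at least 105.4 fragments were estimated in every library, and only Cox6a2, Cox7a1 and Cox6b2 lay lower. Of 10 B cell markers 9 were in the table, all above 1 FPKM in every library, and Cd79a led them with group means from 1108.6 FPKM after CpG-A to 1619.96 in the controls. Low signal was highest in the controls, where 8337 unnamed loci had a median of 1.73 FPKM, against 0.343 after CpG-A, 0.0667 after CpG-B and 0.05 after CpG-C. Over all 15853 features tested, of which 10860 were known genes, the median log2 change against the control was -0.16 after CpG-A and -0.31 after CpG-B and after CpG-C. A change here is a difference of group means of log2(FPKM + 1), given ± SE. It counts as higher or lower at an adjusted p under 0.05 in limma's fit, with Benjamini-Hochberg adjustment over all features tested. With bulk RNA, a change in the number of cells of a type and a change in RNA per cell cannot be told apart.

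Among these genes the third CpG-B library and the third CpG-C library differed from the others of their groups. The third CpG-B library lay above both others of its group in 74 of 79 members, by a median log2 difference of 0.40, where 40.8% of all features tested did so. The third CpG-C library did so in 69 of 79, by 0.35, against 40.1% of all features. Across features, the third CpG-B and the third CpG-C library deviated together from their group means (r = 0.745), so they are not independent of each other. The counts of calls are therefore also given without these 2 libraries, with the members whose calls against the control changed. The choice to leave them out rests on the members' own values. Calls gained without them, and the adjusted p of those calls, are therefore no independent support.

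With all 3 classes the subunit transcripts stood above the control in every complex. Summed over the 79 members, the level was 5423 ± 271 FPKM in the controls, 8425 ± 348 after CpG-A, 9656 ± 1649 after CpG-B and 9782 ± 1473 after CpG-C (SD, n = 3). As a share of the FPKM of all entries this was 1.23% ± 0.0534, 1.73% ± 0.0660, 1.77% ± 0.202 and 1.85% ± 0.229. The 9 treated libraries lay between 8203 and 11552 FPKM, all above the controls, which lay between 5117 and 5629. The first and second CpG-B libraries, at 8564 and 8851 FPKM, and those of CpG-C, at 8868 and 8997, were close to the CpG-A range of 8203 to 8825. The third libraries of these classes stood at 11552 and 11481. The members were short, with a median transcript length of 744 bases, against 3333 for known genes tested. Whether the changes in FPKM depend on transcript length was not tested.

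**Figure D1:**
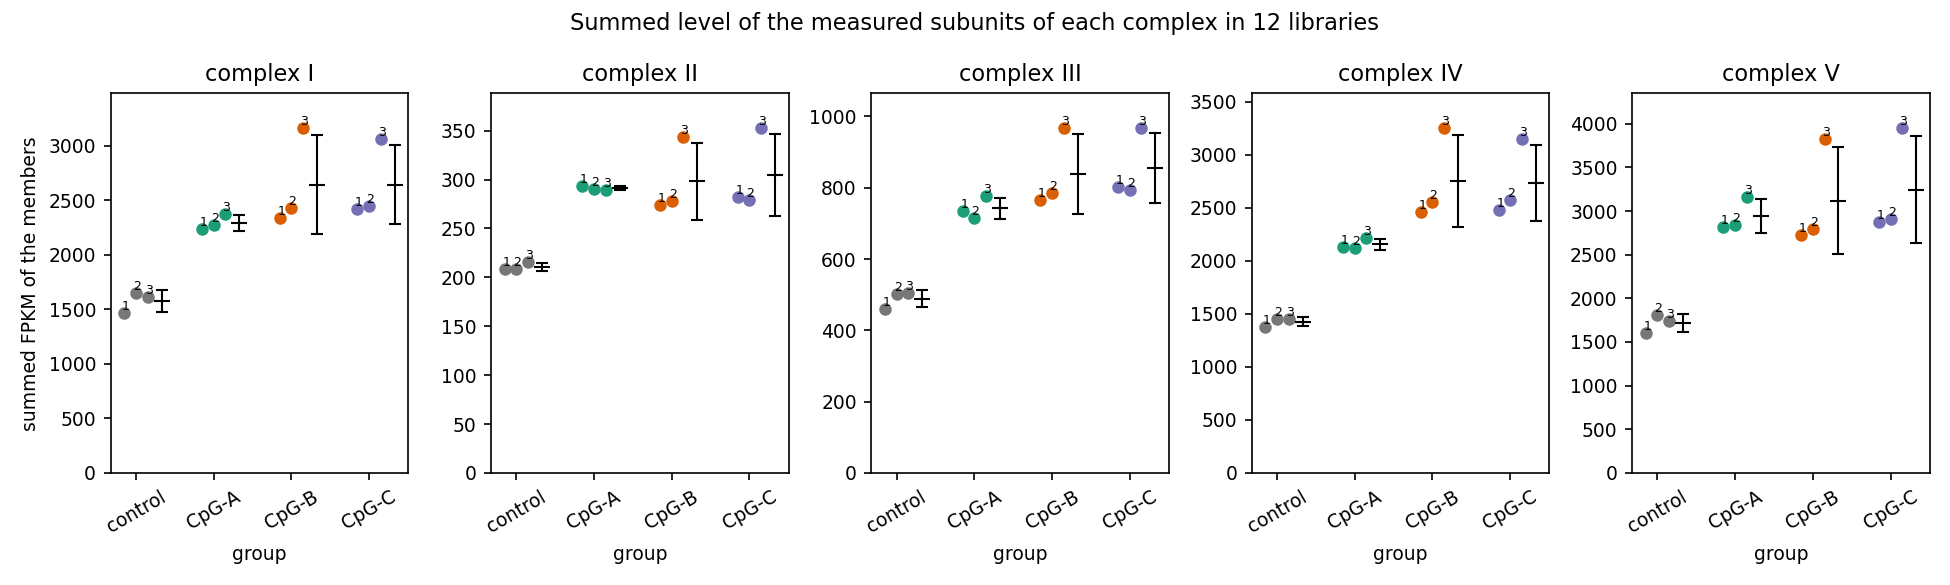
Summed FPKM of the members of each complex (vertical axis, from 0) in each of the 12 libraries by group; points are libraries with their number, and the black mark and bar give the mean and SD of 3 libraries. Every treated library lies above every control library in all 5 complexes, and the third libraries of CpG-B and CpG-C lie above the others of their groups.

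In CpG-A against control 60 of 79 members were higher and 1 was lower, where 23.6% of all features tested were higher and 42.1% lower (32.8% and 22.1% of the known genes tested). The median member changed by 0.63 on the log2 scale, against -0.16 over all features and 0.05 over known genes. In CpG-B against control 68 were higher and 1 lower, with a median of 0.83, where 25.7% of all features were higher and 51.8% lower (34.8% and 35.3% of known genes). CpG-C against control gave 68 higher and 1 lower, with a median of 0.87, where 26.1% of all features were higher and 51.3% lower (35.7% and 34.5% of known genes). At least a 2-fold rise on this scale was seen in 3 members after CpG-A, 23 after CpG-B and 26 after CpG-C. The share of all features at that cut was not counted, so these counts do not set the members apart. Over known genes tested, the median changes after CpG-A, CpG-B and CpG-C were 0.05, 0.002 and 0.015. The members stood 0.58, 0.83 and 0.86 above these medians, less than above those of all features. All 3 comparisons use the same control libraries. With FPKM rescaled to a common sum in each library (TPM), the medians were 0.50, 0.54 and 0.62 and the medians of all features -0.30, -0.61 and -0.57, so that the members stood 0.80, 1.15 and 1.19 above all features, against 0.79, 1.15 and 1.18 without rescaling. Without the third libraries of CpG-B and CpG-C 67 members were higher after CpG-B and 67 after CpG-C, and the medians were 0.70 and 0.74. CpG-A against control, refitted without those libraries, then had 70 members higher and 3 lower. Those gained were Cox6b2, Ndufa13, Ndufa2, Ndufa7, Ndufb11, Ndufb7, Ndufs3, Ndufs7, Ndufv1 and Sdha, higher, and Atp5s and Cox7a2l, lower, with the same changes as before and a smaller SE. Ndufs3 was then no longer called after CpG-B, nor Ndufa5 after CpG-C.

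The same 57 members were higher with all 3 classes, and Atp5sl was lower with all 3. Another 10 were higher after CpG-B and after CpG-C but not called after CpG-A, namely Cox6a2, Cox6b2, Cox7a1, Cox7a2l, Ndufa13, Ndufa2, Ndufa6, Ndufa7, Ndufb11 and Uqcrh. Ndufa5 was called after CpG-A and CpG-C, Ndufs1 and Uqcrb after CpG-A alone and Ndufs3 after CpG-B alone. Neither list of calls shows by itself that classes differ, which the direct comparisons test. With all libraries, the 7 not called with any class were Atp5g2, Atp5s, Ndufa3, Ndufb7, Ndufs7, Ndufv1 and Sdha.

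**Figure D2:**
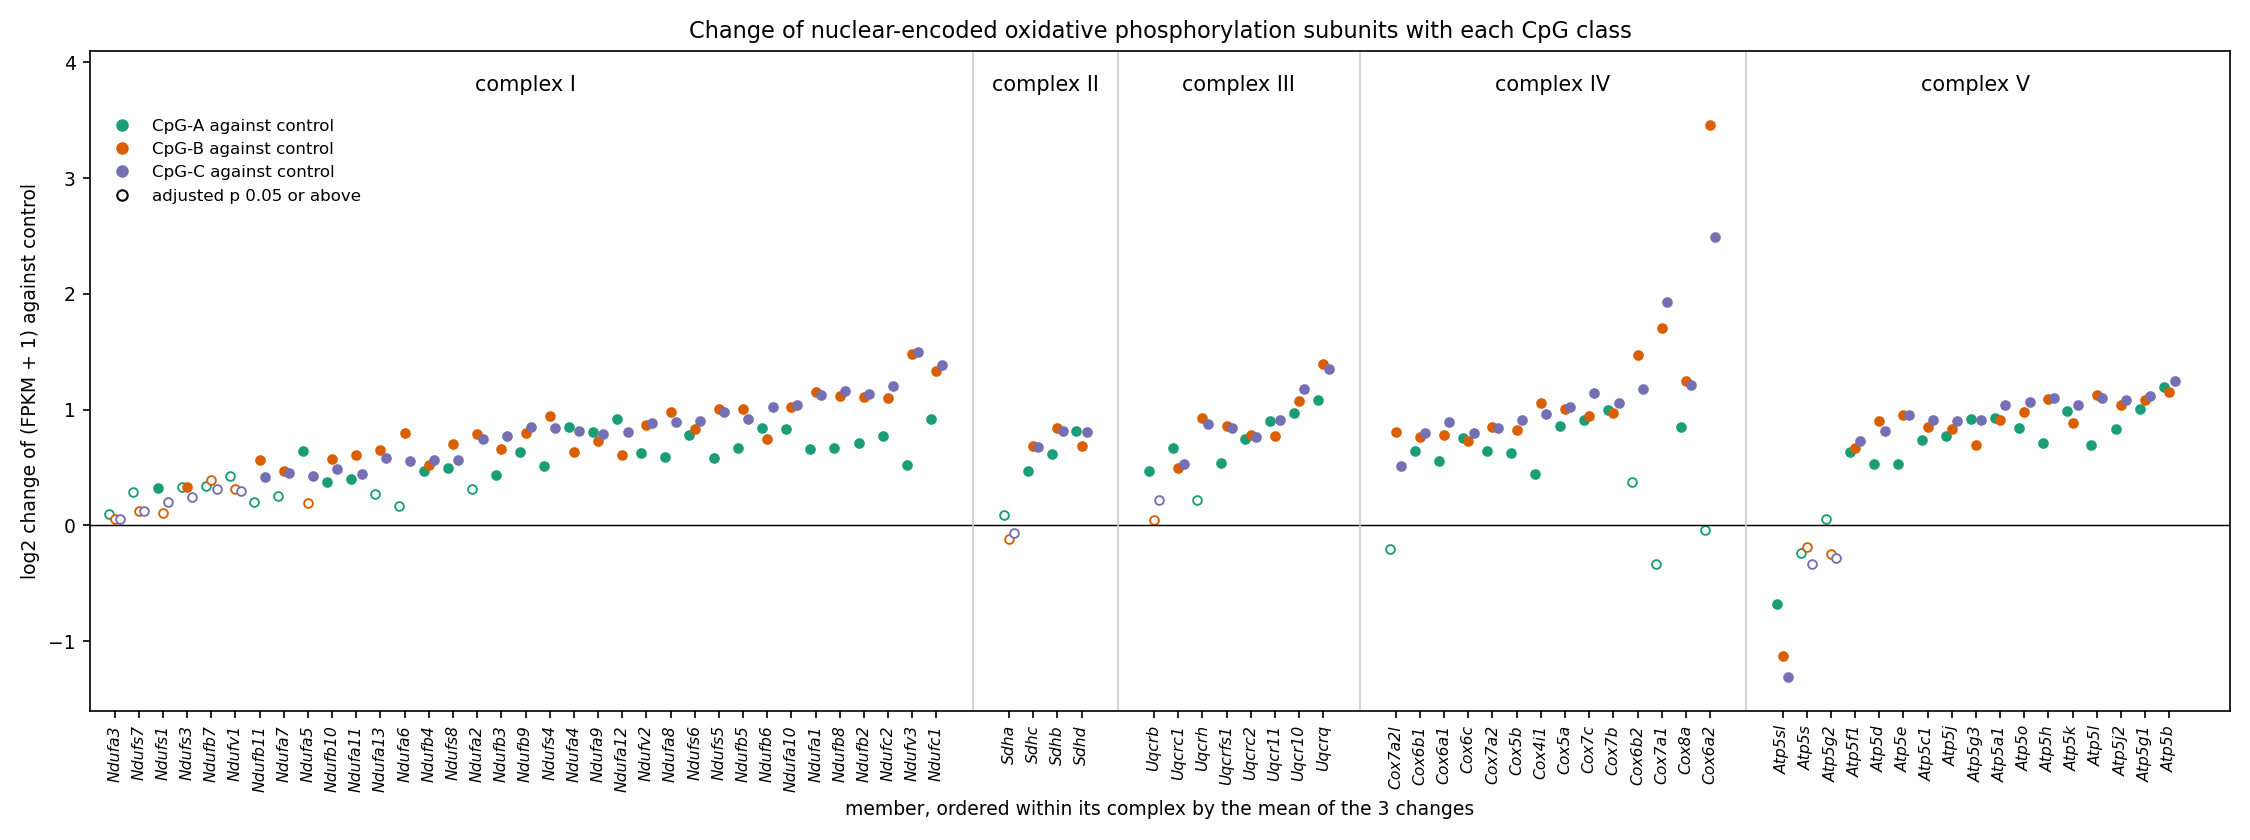
Change of 78 of the 79 members against the control on the log2(FPKM + 1) scale (vertical axis) for the 3 CpG classes, by complex; filled points have an adjusted p under 0.05 and open points do not. Most points lie between 0 and 1.5, Cox6a2 reaches 3.46 after CpG-B, and Atp5sl is the 1 member lower with all classes.

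Complex I takes electrons from NADH and is the largest of the complexes. Of its 36 members 26 were higher after CpG-A, 30 after CpG-B and 30 after CpG-C, with medians of 0.55, 0.74 and 0.80, and the others did not pass the test. The 7 nuclear core subunits, which carry the flavin, the iron-sulfur clusters and the ubiquinone site, held 4, 4 and 3 of these calls, with medians of 0.43, 0.33 and 0.30. Of 28 accessory subunits, 21, 25 and 26 were higher, with medians of 0.59, 0.80 and 0.83. Whether core and accessory subunits differ was not tested.

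Ndufv2, the small iron-sulfur partner of the flavin subunit, rose by 0.62, 0.87 and 0.88, and Ndufs8, another iron-sulfur subunit, by 0.49, 0.71 and 0.57. Ndufs8 was no longer called after CpG-A without the first control library or without the third CpG-A library.

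Ndufs1, a core subunit with several iron-sulfur clusters, behaved otherwise. It stood at 28.37, 32.71 and 31.71 FPKM in the controls, 38.8, 37.34 and 40.34 after CpG-A, 32.65, 31.82 and 35.44 after CpG-B and 33.81, 32.5 and 41.51 after CpG-C. Only the CpG-A libraries cleared the controls without overlap, with a change of 0.32 ± 0.10 (limma adjusted p = 0.010) that was lost under 3 other scalings. Ndufv1, the subunit that binds FMN and NADH, had means of 41.6 ± 1.30, 56.5 ± 3.27, 52.9 ± 13.8 and 52.5 ± 13.9 FPKM (SD, n = 3), and its changes of 0.43, 0.31 and 0.30 did not pass the test with all libraries (limma adjusted p = 0.051 for CpG-A). The change of Ndufv1 after CpG-A was called without the third libraries of CpG-B and CpG-C (limma adjusted p = 7.7e-05), with the replicate block and with only the 2 groups in the fit. Ndufs7 changed by 0.29, 0.13 and 0.12 and was not called with all libraries, and its CpG-A change was called without the same libraries (limma adjusted p = 0.0020) and with only the 2 groups. Ndufs3 was called after CpG-B at an adjusted p of 0.045 for a change of 0.33 ± 0.14, and 16 of 23 alternatives lost that call.

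The highest changes in complex I belonged to accessory subunits. Ndufv3, which sits beside the flavin subunit, stood at 26.87, 33.02 and 31.49 FPKM in the controls, 43.1, 42.13 and 46.49 after CpG-A, 83.29, 84.62 and 91.31 after CpG-B and 91.8, 89.8 and 80.89 after CpG-C. Control, CpG-A and the other 2 classes formed 3 separate levels. Its changes against the control were 0.52 ± 0.09, 1.48 ± 0.09 and 1.50 ± 0.09 (limma adjusted p = 0.00021, 4.7e-08 and 4.4e-08). Ndufc1, a small membrane subunit, rose by 0.92, 1.33 and 1.38. At the other end Ndufa3 changed by 0.10, 0.06 and 0.05, with libraries from 48.31 to 112.94 FPKM that overlapped between all groups. Ndufa4, named for complex I and now counted with complex IV, was the most abundant by mean level under this prefix, at 105.2 ± 5.82, 190.3 ± 8.66, 166.2 ± 38.5 and 189.04 ± 41.4 FPKM, and was higher with all 3 classes.

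Complex II is also an enzyme of the tricarboxylic acid cycle, succinate dehydrogenase. Its catalytic flavoprotein gene Sdha did not follow the other 3 members. Sdha stood at 77.05, 78.63 and 79.1 FPKM in the controls, 86.61, 81.73 and 82.33 after CpG-A, 69.83, 70.47 and 76.58 after CpG-B and 71.89, 70.32 and 82.58 after CpG-C. The CpG-A libraries lay above and the CpG-B libraries below all controls, by small steps, and the CpG-C libraries overlapped them. Its changes against the control were 0.09 ± 0.07, -0.11 ± 0.07 and -0.07 ± 0.07, and none passed the test in limma's fit. Without the third libraries of CpG-B and CpG-C Sdha was called lower after CpG-B (-0.16, adjusted p = 0.0062) and after CpG-C (-0.14, adjusted p = 0.012) and higher after CpG-A (0.09, adjusted p = 0.045). Those calls rest on libraries left out because of the members' own values. TPM scaling also called Sdha lower after CpG-B and after CpG-C.

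Sdhb, the iron-sulfur subunit, stood at 48.74, 49.6 and 51.72 FPKM in the controls, 76.1, 78.71 and 76.74 after CpG-A, 80.05, 82.99 and 111.58 after CpG-B and 81.8, 81.97 and 104.43 after CpG-C. All treated libraries lay above all controls, and the changes were 0.62 ± 0.12, 0.84 ± 0.12 and 0.82 ± 0.12 (limma adjusted p = 0.00079, 4.5e-05 and 6.0e-05). Sdhc and Sdhd, the membrane anchors, were higher with every class, by 0.47 to 0.68 and by 0.69 to 0.82.

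Complex III passes electrons from ubiquinol to cytochrome c, and 7 of its 8 members were higher with each class, with medians of 0.71, 0.82 and 0.86. The Rieske iron-sulfur subunit Uqcrfs1 rose by 0.54, 0.86 and 0.84, and the core proteins Uqcrc1 and Uqcrc2 by 0.67, 0.50 and 0.53 and by 0.75, 0.78 and 0.76. Uqcrq, a small subunit known as a ubiquinone-binding protein, had the highest mean change in the complex. It stood at 14.72, 15.61 and 14.21 FPKM in the controls, 31.62, 31.98 and 34.4 after CpG-A, 32.68, 34.24 and 59.93 after CpG-B and 32.73, 35.09 and 53.25 after CpG-C. The first and second libraries of CpG-B and CpG-C were near the CpG-A libraries, and the third ones far above. Its changes were 1.09 ± 0.21, 1.40 ± 0.21 and 1.35 ± 0.21 (limma adjusted p = 0.00066, 6.3e-05 and 8.3e-05). Uqcr10 followed with 0.97, 1.07 and 1.17.

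Uqcrh, the hinge protein that contacts cytochrome c1, was the most abundant of complex III. It stood at 118.24, 160.73 and 131.06 FPKM in the controls, 153.98, 152.79 and 168.57 after CpG-A, 263.6, 258.07 and 254.67 after CpG-B and 265.74, 253.86 and 228.9 after CpG-C. The CpG-A libraries overlapped the controls and all libraries of the other classes lay above both, the third ones included, which here were the lowest of their groups. The change was 0.22 ± 0.10 after CpG-A, not called, and 0.93 ± 0.10 and 0.87 ± 0.10 after CpG-B and CpG-C (limma adjusted p = 4.4e-06 and 7.2e-06). Uqcrb, a ubiquinone-binding subunit, went the other way, with 109.97, 104.67 and 132.92 FPKM after CpG-A against 71.67, 89.87 and 88.56 in the controls, 79.54, 84.13 and 93.4 after CpG-B and 94.19, 86.42 and 111.16 after CpG-C. All CpG-A libraries were above the controls, and CpG-B and CpG-C overlapped them.

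Complex IV, cytochrome c oxidase, reduces oxygen, and several of its subunits exist as a common form and a tissue form. All 14 members past the limit were higher after CpG-B and after CpG-C, with medians of 0.96 and 0.99, and 10 were higher after CpG-A, with a median of 0.63. Cox6b2 and Cox6a2 reached the limit of 1 FPKM only through CpG-B and CpG-C, so they had to differ to be counted. Cox4i1, the regulatory subunit and the most abundant of the complex, stood at 236.11, 221.03 and 240.64 FPKM in the controls, 322.54, 320.47 and 306.69 after CpG-A, 436.88, 456.18 and 567.91 after CpG-B and 398.78, 452.46 and 514.8 after CpG-C. The levels rose in 3 steps without overlap, from the controls to CpG-A to both other classes. Its changes were 0.44 ± 0.11, 1.05 ± 0.11 and 0.96 ± 0.11 (limma adjusted p = 0.0035, 2.8e-06 and 5.7e-06). Its hypoxia-linked counterpart Cox4i2 made up at most 0.199% of the pair in any library. Cox8a, the common form of the smallest subunit, rose by 0.85, 1.25 and 1.21, while its muscle form Cox8b was among the 5 genes under the limit.

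Cox6a2, the form of subunit VIa known from heart and skeletal muscle, had the highest change of all members. It stood at 0, 0.12 and 0.3 FPKM in the controls, 0, 0.16 and 0.15 after CpG-A, 11.58, 12.66 and 10.33 after CpG-B and 4.81, 5.86 and 5.44 after CpG-C. Controls and CpG-A lay at or near 0, and the CpG-C libraries formed a level between them and the CpG-B libraries. The estimated fragments behind these values were 0 to 2.9, 0 to 1.9, 143.8 to 176.2 and 66.4 to 82.9 a library. Against the control the change was 3.46 ± 0.13 after CpG-B and 2.49 ± 0.13 after CpG-C (limma adjusted p = 1.2e-09 and 1.4e-08), and -0.04 ± 0.13 after CpG-A, not called. The common form Cox6a1 rose as well, and Cox6a2 made up 3.84% ± 1.06 of the pair's FPKM after CpG-B and 1.66% ± 0.341 after CpG-C (SD, n = 3). At its locus, chr7:128205435-128206366 in mm10, it overlaps the end of Itgad, on the opposite strand, which was at most 0.05 FPKM in any library.

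Cox7a1, the muscle form of subunit VIIa, stood at 1.19, 1.16 and 1.16 FPKM in the controls, 1.13, 0.16 and 1.06 after CpG-A, 5.57, 4.61 and 8.53 after CpG-B and 7.42, 8.49 and 6.03 after CpG-C. The control level was below the median of the unnamed loci in the controls, and CpG-B and CpG-C lay above both other groups. The changes were -0.34 ± 0.24, not called, 1.70 ± 0.24 and 1.93 ± 0.24 (limma adjusted p = 2.9e-05 and 1.0e-05 for CpG-B and CpG-C). Of the FPKM of Cox7a1 and Cox7a2 together, Cox7a1 held 2.75% in the controls, 1.15% after CpG-A, 7.37% after CpG-B and 9.01% after CpG-C. Cox6b2, the testis form of subunit VIb, stood at 0.3, 0.3 and 0.57 FPKM in the controls, 0.78, 0.82 and 0.8 after CpG-A, 3.23, 2.96 and 2.4 after CpG-B and 3.02, 3.29 and 0.77 after CpG-C. The third CpG-C library fell to the CpG-A level, and the others of CpG-B and CpG-C lay above it. Its changes were 1.47 ± 0.26 after CpG-B and 1.17 ± 0.26 after CpG-C (limma adjusted p = 0.00025 and 0.0014). A list of 8 skeletal and heart muscle markers summed to 6.89 to 8.37 FPKM in the controls, 4.81 to 5.30 after CpG-A, 5.82 to 7.05 after CpG-B and 5.94 to 6.43 after CpG-C. Mylpf was the highest of them in every group, with means of 5.05, 4.41, 6.16 and 5.96 FPKM in the controls and after CpG-A, CpG-B and CpG-C. Mb, Myh1 and Myh2 were at 0 in all CpG-B and CpG-C libraries.

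Cox7a2l, a relative of these subunits known for joining complexes III and IV into supercomplexes, did not rise after CpG-A. It stood at 198.74, 228.17 and 201.87 FPKM in the controls, 183.89, 175.77 and 186.22 after CpG-A, 367.57, 356.11 and 375.63 after CpG-B and 319.36, 317.67 and 263.35 after CpG-C. No groups overlapped, with the order CpG-A, control, CpG-C, CpG-B. The changes were -0.20 ± 0.09 after CpG-A (limma adjusted p = 0.058), 0.81 ± 0.09 after CpG-B and 0.51 ± 0.09 after CpG-C. With TPM scaling, and without the third libraries of CpG-B and CpG-C, the CpG-A change was called lower (adjusted p = 0.0083 in the latter).

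**Figure D3:**
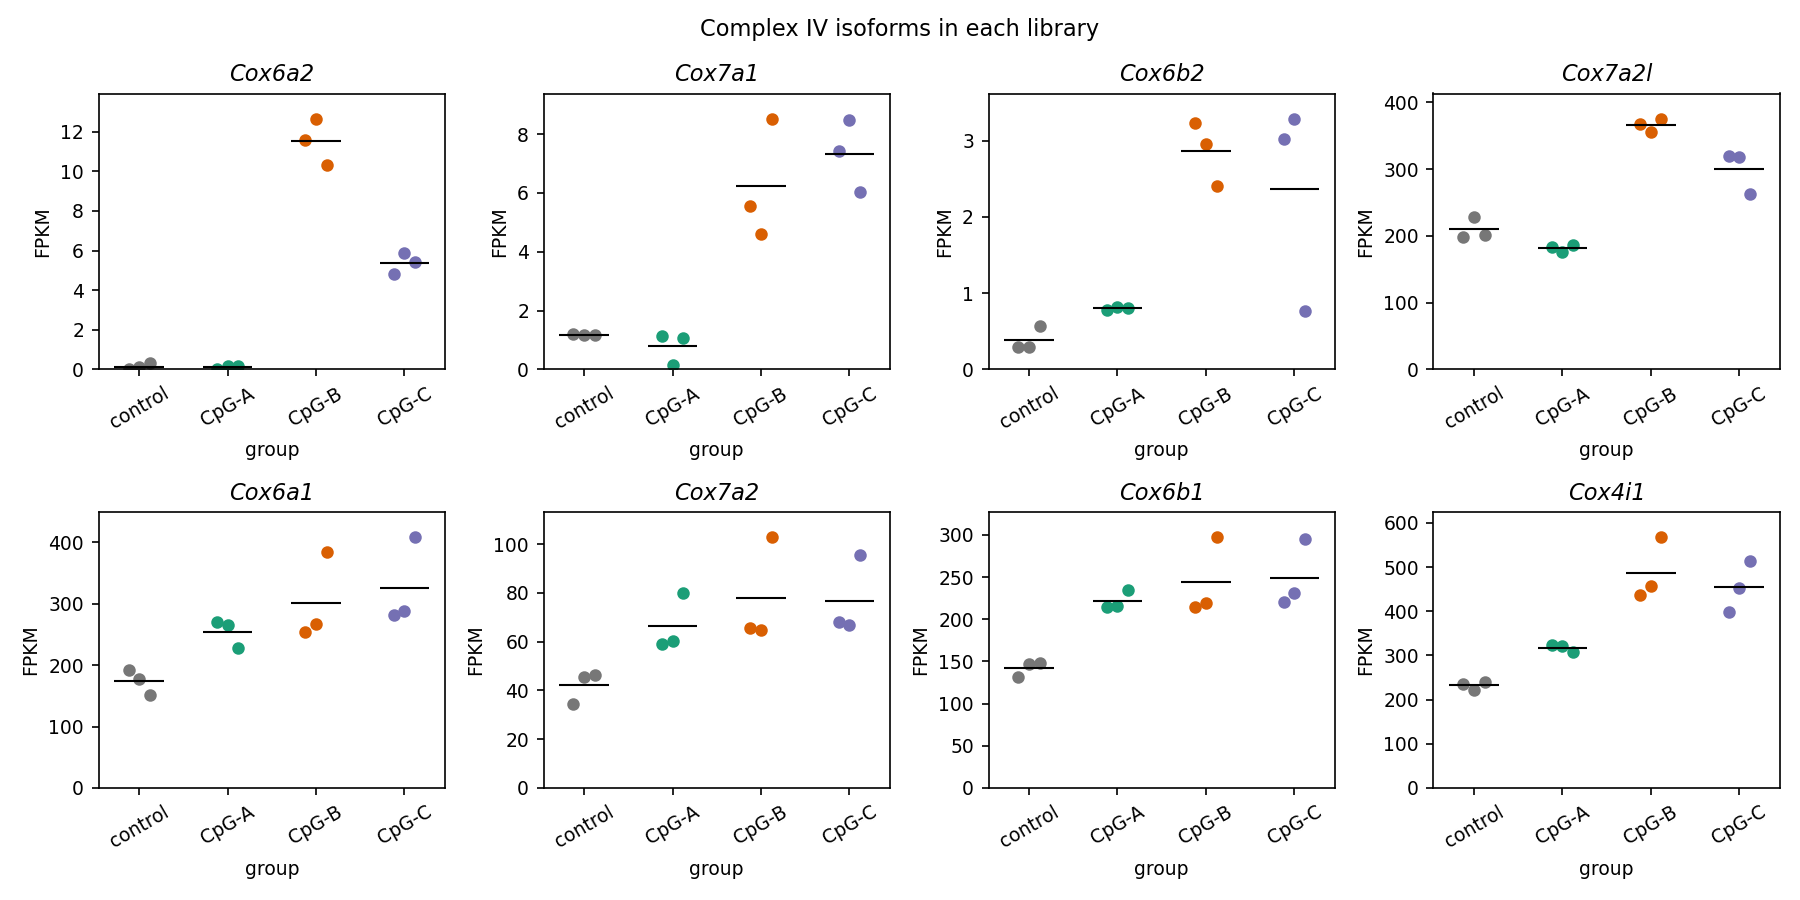
FPKM (vertical axes, from 0) in each library of 4 groups for the tissue forms Cox6a2, Cox7a1 and Cox6b2, for Cox7a2l, and for the common forms Cox6a1, Cox7a2, Cox6b1 and Cox4i1; points are libraries and lines group means. The 3 tissue forms are at or below 1.19 FPKM in every control and CpG-A library, and the common forms stand at 34.6 FPKM or more in every library.

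Complex V makes ATP, and 14 of its 17 members were higher with each class, with medians of 0.74, 0.90 and 0.95. Atp5b, the catalytic beta subunit, had the highest mean of all members in every group. It stood at 235.94, 220.47 and 243.42 FPKM in the controls, 538.36, 533.61 and 535.12 after CpG-A, 448.98, 454.85 and 686.04 after CpG-B and 477.13, 481.47 and 738.08 after CpG-C. All treated libraries cleared the controls, and the CpG-A libraries lay between the first 2 libraries of the other classes and the third ones. The changes were 1.20 ± 0.18, 1.15 ± 0.18 and 1.24 ± 0.18 (limma adjusted p = 9.5e-05, 7.4e-05 and 3.9e-05). Atp5a1, the alpha subunit, rose by 0.93, 0.91 and 1.04, and Atp5c1, the gamma subunit of the central stalk, by 0.74, 0.85 and 0.91.

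The c subunit of the rotor ring is encoded by 3 genes with different leader peptides. Atp5g1 rose by 1.00, 1.08 and 1.12, from 44.3 ± 2.28 FPKM in the controls, and Atp5g3 by 0.92, 0.70 and 0.91, from 137.4 ± 13.2 FPKM (SD, n = 3). Atp5g2 was not called, and its libraries ranged from 63.83 to 353.08 FPKM within the CpG-A group. The table lists Atp5g2, Ndufs5 and Atp5h on chromosomes 17, 16 and 15, while RefSeq has them on 15, 4 and 11, and their listed genomic length equals the transcript length. Their values are uncertain, since reads of a gene and of a copy without introns can be assigned to either. Reads of the 11 members that overlap another known gene are likewise uncertain without strand, among them Cox6a2, Ndufa2, Ndufa13, Ndufb11 and Uqcrc2.

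Atp5sl was the 1 member lower with all classes, and despite its symbol it is now known as Dmac2, a factor of complex I assembly. It stood at 62.62, 63.34 and 67.99 FPKM in the controls, 39.46, 40.66 and 39.82 after CpG-A, 27.97, 29.91 and 29.26 after CpG-B and 26, 26.03 and 24.39 after CpG-C. The 4 groups did not overlap and fell in that order. The changes were -0.68 ± 0.06, -1.13 ± 0.06 and -1.31 ± 0.06 (limma adjusted p = 6.8e-06, 3.2e-08 and 1.0e-08). Its relative Atp5s, now Dmac2l, changed by -0.24, -0.18 and -0.34 and was not called with all libraries.

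The 3 pairs of classes were compared directly at the same dose and time. In CpG-B against CpG-A, 22 of 79 members were higher and 3 lower, where 13.1% of all features tested were higher and 31.5% lower, with a median of 0.20 for the members and -0.24 for all features. In CpG-C against CpG-A, 18 were higher and 1 lower, where 11.4% of all features were higher and 29.3% lower, with medians of 0.20 and -0.22. By complex, the members higher after CpG-B than after CpG-A were 11 of complex I, 2 of complex III, 6 of complex IV and 3 of complex V. Cox6a2 and Cox6b2, counted here, passed the limit of 1 FPKM only through CpG-B and CpG-C, so they had to differ to be counted. Among those not called, 6 more were higher and 2 lower at an unadjusted p under 0.05 for CpG-B, and 11 higher for CpG-C.

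The highest differences were those of isoforms and Ndufv3. For Cox6a2 and Cox6b2 the limit on FPKM had selected for such a difference, so their p-values are no independent support. Cox6a2 was higher by 3.50 ± 0.13 after CpG-B and by 2.53 ± 0.13 after CpG-C than after CpG-A, and Cox7a1 by 2.04 ± 0.24 and 2.26 ± 0.24 (limma adjusted p = 8.8e-09, 1.1e-07, 5.7e-05 and 3.4e-05). Ndufv3 was higher by 0.96 ± 0.09 and 0.98 ± 0.09, and Cox7a2l by 1.01 ± 0.09 and 0.71 ± 0.09. Cox6b2 was higher by 1.10 ± 0.26 after CpG-B (limma adjusted p = 0.0068) and by 0.80 ± 0.26 after CpG-C (limma adjusted p = 0.033), the latter call being lost in 7 of 22 alternatives. The 3 lower after CpG-B were Atp5sl (-0.45 ± 0.06), Uqcrb (-0.43 ± 0.12) and Sdha (-0.21 ± 0.07), with limma adjusted p of 0.00022, 0.017 and 0.038. The Sdha call was lost without any 1 CpG-A library and without the first or the second CpG-B library, and the Uqcrb call without the third CpG-A or the first CpG-B library.

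Without the third libraries of CpG-B and CpG-C the count of members lower than after CpG-A grew from 3 to 17 for CpG-B and from 1 to 12 for CpG-C, while 19 and 20 were higher. The median differences fell to 0.03 and 0.07. The 14 members that became lower after CpG-B were Atp5a1, Atp5b, Atp5g1, Atp5g3, Ndufa12, Ndufa4, Ndufa5, Ndufa9, Ndufs1, Ndufs7, Ndufv1, Sdhd, Uqcr11 and Uqcrc1. Atp5b then differed by -0.24 ± 0.05 (limma adjusted p = 0.0031), against -0.04 ± 0.18 with all libraries. Cox6a2, Cox7a1, Cox6b2, Cox7a2l and Ndufv3 stayed higher after CpG-B, by 3.57, 1.82, 1.19, 0.99 and 0.92. With TPM scaling 15 members were higher and 9 lower after CpG-B than after CpG-A, with a median of 0.04.

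**Figure D4:**
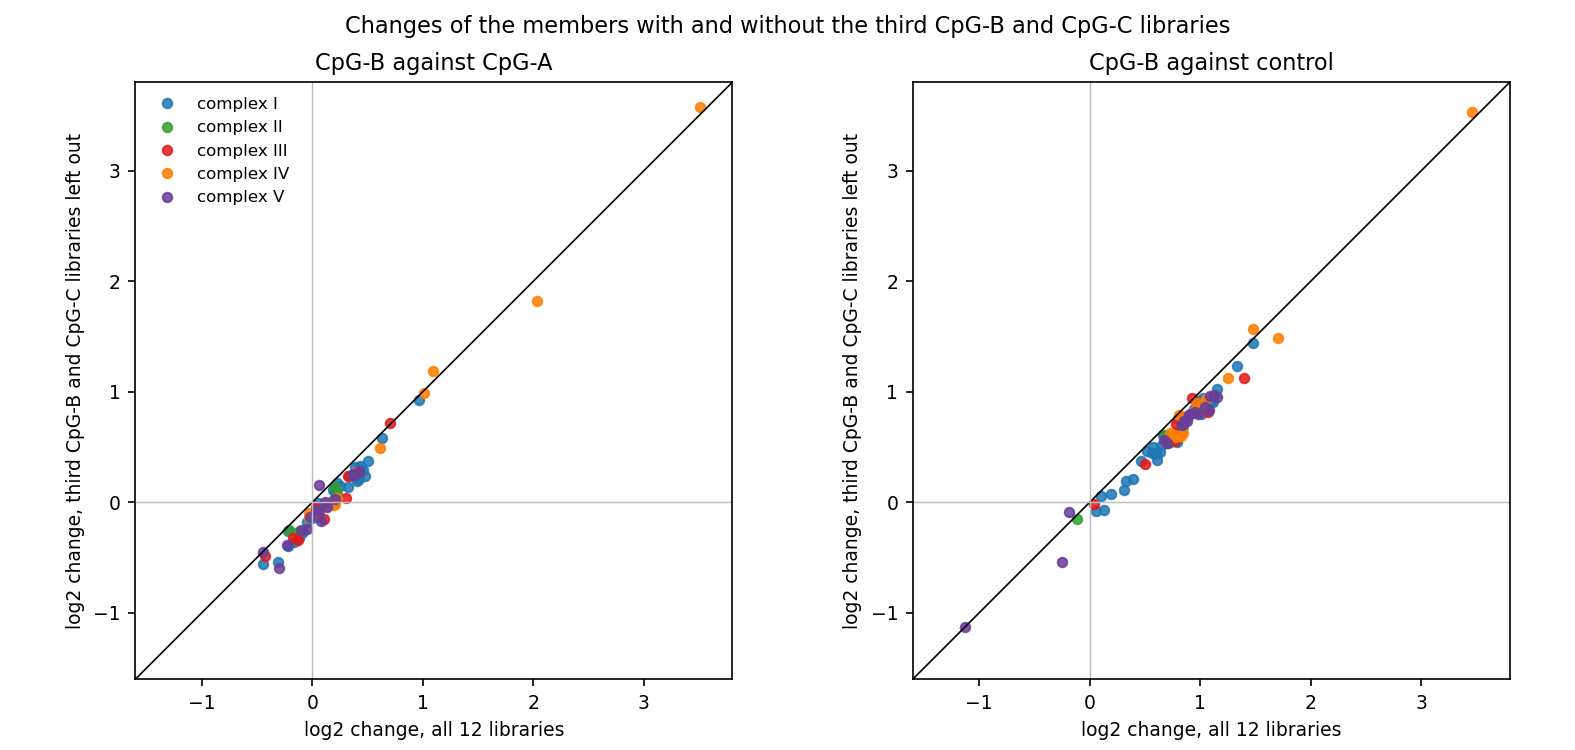
Log2 change of 78 of the 79 members with all 12 libraries (horizontal axis) and without the third libraries of CpG-B and CpG-C (vertical axis), for CpG-B against CpG-A (left) and CpG-B against control (right), coloured by complex; the diagonal marks equal values. Most points lie below the diagonal, by the same shift in both plots, since only the CpG-B mean changes. In the left plot many cross 0, while Cox6a2 stays above 3.

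Between the phosphorothioate classes, CpG-C against CpG-B, 0 members were higher and 1 was lower, where 0.114% of all features tested were higher and 0.0694% lower. The lower member was Cox6a2, by -0.97 ± 0.13 (limma adjusted p = 0.0099). Its libraries did not overlap. With the replicate number as a block in the fit of all 12 libraries the limma adjusted p was 0.012. With only these 2 groups in the fit it was 0.32, and 0.091 with the block added, which treats same-numbered libraries as pairs. The call was also lost without the first or the second CpG-B library, without the first CpG-C library, and with a pseudocount of 0.1, no filter or TPM scaling. For 77 of the 78 members not called, the 95% interval of the difference lay within 2-fold in either direction, Atp5g2 being the exception, and the median half-width was 0.31. Atp5b, for example, differed by 0.09, with an interval from -0.30 to 0.48. Cox7a2l (-0.29) and Atp5sl (-0.18) were lower and 0 members higher at an unadjusted p under 0.05, without passing adjustment.

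Genes that serve the complexes without being among the members were counted by list. For this and the lists below, 32.8%, 34.8% and 35.7% of known genes tested were higher after CpG-A, CpG-B and CpG-C. Lower were 22.1%, 35.3% and 34.5%. Assembly factors were higher in 22, 20 and 20 of 44 genes after CpG-A, CpG-B and CpG-C and lower in 1, 3 and 3. Uqcc2, an assembly factor of complex III, led them with 1.54 ± 0.14 after CpG-B, and Cox20, a chaperone of complex IV assembly, was lowest with -0.60 ± 0.08. Cox18, which helps insert a complex IV subunit into the membrane, rose by 0.93, and Acad9, of complex I assembly, fell by 0.52 on the log2 scale. The 4 nuclear subunits that the names had missed, Cyc1 of complex III, Ndufab1 of complex I, and Usmg5 and 2010107E04Rik of complex V, were higher with every class. The 13 subunits encoded in mitochondrial DNA are not analysed here.

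Electron carriers and ubiquinone synthesis genes were higher in 8, 7 and 8 of 18 and lower in 2, 3 and 4. Of known genes tested, 32.8%, 34.8% and 35.7% were higher. Cycs, cytochrome c itself, stood at 15.65, 15.54 and 15.85 FPKM in the controls, 34.57, 35.07 and 32.23 after CpG-A, 30.69, 32.13 and 43.35 after CpG-B and 33.56, 31.86 and 58.64 after CpG-C. All treated libraries were above the controls, and the third CpG-C library was the highest. It rose by 1.07 ± 0.19, 1.11 ± 0.19 and 1.29 ± 0.19, and Pdss1, which makes the ubiquinone tail, by 1.48, 1.21 and 1.28. Coq10a, a ubiquinone-binding protein, fell by 0.42 on the log2 scale after CpG-B, and Sqrdl, which passes electrons from sulfide to ubiquinone, at 1.62 to 1.77 FPKM in the controls, by 0.57. That control level is near the median of the unnamed loci there.

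Tricarboxylic acid cycle genes were higher in 15, 12 and 12 of 17, and the others did not pass the test. Suclg2, the GTP-forming subunit of succinate-CoA ligase, stood at 8.68, 9.8 and 10.55 FPKM in the controls, 17.09, 16.73 and 19.08 after CpG-A, 59.62, 59.16 and 49.11 after CpG-B and 49.3, 49.38 and 38.31 after CpG-C. The third libraries of CpG-B and CpG-C were the lowest of their groups, unlike for most members. Its changes were 0.81 ± 0.12, 2.41 ± 0.12 and 2.12 ± 0.12 (limma adjusted p = 7.7e-05, 1.0e-08 and 2.9e-08). Cs, citrate synthase, rose by 0.69, 1.00 and 0.96.

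Regulators of mitochondrial biogenesis and mitochondrial DNA expression did not move in 1 direction, with 5, 4 and 4 of 18 higher and 4, 7 and 4 lower. Of known genes tested, 32.8%, 34.8% and 35.7% were higher and 22.1%, 35.3% and 34.5% lower. Tfam, which packages mitochondrial DNA, was between 16.16 and 21.82 FPKM in all libraries and changed by 0.04, 0.01 and 0.03. Nrf1 changed by 0.04, -0.17 and -0.10, and Gabpa by 0.15, -0.12 and 0.02, with no call against the control. Slirp, which stabilises mitochondrial transcripts, rose by 0.96, 1.03 and 1.14, and Tfb1m, a mitochondrial rRNA methyltransferase, by 0.64, 0.57 and 0.50. Polg, the mitochondrial DNA polymerase, fell by 0.67 after CpG-B on the log2 scale. Pprc1, a coactivator of growth-linked biogenesis, rose after CpG-A by 0.69 ± 0.15 and was lower after CpG-B than after CpG-A, by -0.78 ± 0.15 (limma adjusted p = 0.0012 and 0.0016). Ppargc1b was lower after CpG-B (-0.45), and Ppargc1a fell by 0.85 on this scale, from 1.07 to 1.18 FPKM in the controls, below the median of the unnamed loci there.

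Hypoxia-linked mitochondrial genes were higher in 2 of 9 after CpG-A and in 7 of 9 after CpG-B and after CpG-C, and 1 was lower with each of the latter. Bnip3, a mitophagy receptor, stood at 8.51, 9.19 and 10.64 FPKM in the controls, 6.82, 6.87 and 7.52 after CpG-A, 49.06, 48.51 and 25.78 after CpG-B and 74.35, 73.31 and 23.36 after CpG-C. The third libraries of CpG-B and CpG-C, highest in most members, were here the lowest of their groups. Egln3, an oxygen sensor, had the same order, with 6.16, 6.04 and 2.66 FPKM after CpG-B and 13.03, 12.77 and 2.38 after CpG-C. Bnip3 changed by 1.96 ± 0.37 and 2.31 ± 0.37 against the control with these classes, and Egln3 by 2.0 ± 0.45 and 2.61 ± 0.45. Hif1a, the oxygen-regulated transcription factor subunit, fell by 0.49 and 0.37 on the log2 scale. The part of these genes in the level of the members was not tested.

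**Figure D5:**
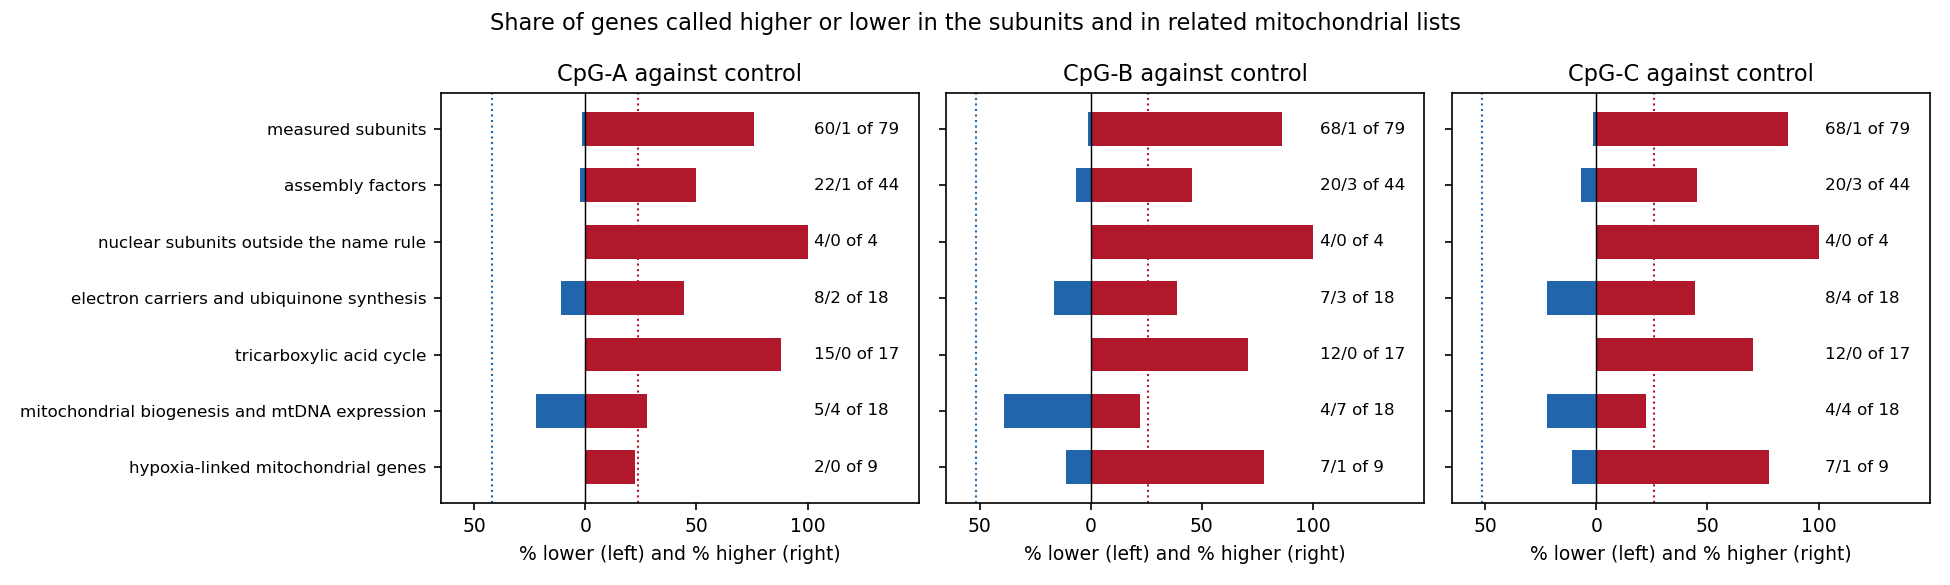
Share of the genes of each list called higher (right of 0) and lower (left of 0), in percent, for the 3 classes against the control, with the counts printed as higher and lower of the number tested; dotted lines mark the shares over all features tested. The measured subunits reach 60, 68 and 68 higher of 79, and the biogenesis list lies near the dotted line of higher calls. That line covers all features, while 32.8%, 34.8% and 35.7% of known genes tested were higher.

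Markers of other cell types were summed over each list. T cell markers summed to 110.2 to 130.6 FPKM in the controls and 75.6 to 85.4 after CpG-A. After CpG-B and CpG-C the sums were 99.3 to 121.2 and 77.5 to 86.2. Cd2 made most of each sum, with means of 111.2, 74.9, 105.6 and 80.0 FPKM in these groups. The sums thus mainly describe this 1 gene. Monocyte and macrophage markers summed to 14.4 to 15.9, 17.9 to 18.8, 6.47 to 7.63 and 7.35 to 10.1. Dendritic cell markers summed to 11.8 to 15.1, 31.5 to 52.6, 69.8 to 97.1 and 38.8 to 82.3, rising with the members, with Bst2, also an interferon-induced gene, as the highest. NK cell markers reached at most 3.58 FPKM in sum in any library, neutrophil markers 3.47, and erythroid and platelet markers 7.67. Their part in the result was not tested.

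The authors' deposited table also gives a q-value for each comparison. By the authors' deposited table at a q under 0.05, 74 members were higher and 4 lower after CpG-A, 75 and 4 after CpG-B, and 75 and 4 after CpG-C. Between classes the authors' deposited table has 55 higher and 19 lower for CpG-B against CpG-A, 62 and 12 for CpG-C against CpG-A, and 25 and 14 for CpG-C against CpG-B. The shares of all features at this q were not counted, so these counts do not set the members apart from other genes.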

How the data were processed

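RNA of 12 libraries of murine splenic B cells was measured, 3 for each of 4 groups, which were taken from the treatment labels. The authors deposited FPKM for each library, rounded to 2 decimals per the file headers. Their log2 ratios between groups, p-values and q-values stand beside them in the deposited table, and the sources used here do not say which tool made them. The submitters' processing notes list mm10 as the build and, without a role, RSEM 1.2.8, Bowtie2 2.2.5, StringTie, HISAT and GATK. The table had 28021 entries, 2 of which were dropped because they were marked neither as a known gene nor as an unnamed locus. It also gives positions and lengths.

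FPKM are not counts, so limma 3.58.1 (R 4.3.3) with a variance trend was fitted to log2(FPKM + 1) of the 15853 features above 1 FPKM in at least 3 libraries, all 12 libraries in 1 fit with 4 group means and 6 comparisons. P-values were Benjamini-Hochberg adjusted over all features. The changes understate those of low genes. The fit was tested on simulated data. Tables and figures used Python 3.11.15, pandas 2.3.3 and matplotlib 3.10.9. The values of 1 member are not reported here. The members and lists were chosen with earlier results of these data known.

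Named members are, per complex, the most abundant, the 2 highest and the 2 lowest by mean change against the control, core subunits, isoforms, all Sdh, and the 3 highest and lowest calls between classes. Other members are named where a count is broken down. List genes are the 2 highest and 2 lowest calls with CpG-B and 8 genes set by name. Egln3 and Bnip3 fall under this rule.

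Depth was estimated by fitting low FPKM of genes with 1 transcript to whole fragments, and 90.2% to 96.2% of values came within 0.2 of a whole number of fragments, where evenly spread values would give 40%. The estimates move with the assumed effective length, in the third CpG-C library from 25.0 to 26.9 M. No counts were recovered for testing, since the effective lengths are estimates. Across features, deviations from the group mean of same-numbered CpG-B and CpG-C libraries correlated with r = 0.594, 0.538 and 0.745. The first CpG-B with the second CpG-C library gave 0.509, and the second CpG-B with the first CpG-C library 0.551. The third libraries thus stood apart together, and these values do not show that the first and second are paired by number. Control and CpG-A gave 0.468, -0.117 and 0.518 for the same numbers, and the numbers were not taken to pair any groups in the main fit. Alternatives were a pseudocount of 0.1, a filter at 5 FPKM, no filter, 3 scalings, known genes only, only the groups compared, no variance trend, the replicate block, and libraries left out.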

Additional observations from a re-analysis of the deposited data

How the results depend on the processing

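Of 114 calls of named members, 98 held under every alternative run for them (22 to 24 a call) and 16 were lost under some, and 0 reversed. The calls lost most often were Ndufs3 (CpG-B against control, 16 alternatives), Cox8a (CpG-B against CpG-A, 9), Cox6a2 (CpG-C against CpG-B, 8) and Sdha (CpG-B against CpG-A, 8). The median change of the members kept its sign in 5 of 6 comparisons. In CpG-C against CpG-B it was 0.01, ranged from -0.09 to 0.16 with 1 library left out, and was below 0 without the first or the second CpG-B library (-0.06 and -0.05) or the third CpG-C library. The cause of the following shifts was not tested. With TPM, upper-quartile and median-of-ratios scaling the median in CpG-A against control was 0.50, 0.50 and 0.51, with 2 members lower under each, and 2 were lower with only the 2 groups in the fit. With TPM scaling the medians with CpG-B and CpG-C against control were 0.54 and 0.62, with 3 members lower in each, and 9 (CpG-B) and 4 (CpG-C) were lower than with CpG-A. Median-of-ratios and upper-quartile scaling left 1 member lower in CpG-B against CpG-A, and 5 were lower with only the 2 groups. Without the third CpG-B and the third CpG-C library the members lower were 3, 2 and 2 with CpG-A, CpG-B and CpG-C against control, and 17 (CpG-B) and 12 (CpG-C) against CpG-A. With the replicate number as a block in all 12 libraries, 64, 69 and 70 members were higher against control, 27 and 27 higher and 5 and 2 lower against CpG-A, with 1 lower in each class against control and 1 lower in CpG-C against CpG-B. In CpG-C against CpG-B, a fit of those 2 groups alone had 0 members lower, both without a block and with the replicate block. The latter was added after seeing the data. That comparison also had 0 lower with a pseudocount of 0.1, no filter or TPM scaling. Leaving out 1 library at a time gave 56 to 64 higher and 1 to 2 lower with CpG-A against control, 66 to 69 higher and 1 lower with CpG-B, 66 to 69 higher and 1 to 2 lower with CpG-C, 15 to 24 higher and 1 to 6 lower for CpG-B against CpG-A, 10 to 29 higher and 1 to 4 lower for CpG-C against CpG-A, and 0 to 1 lower for CpG-C against CpG-B. For CpG-C against CpG-A, 10 were higher without the first or without the second CpG-A library and 29 without the third CpG-B library, which changes only the spread in that fit. Where a left-out library leaves 2 in a group, the spread is pooled over all groups. The depth limits Cox6a2, Cox7a1 and Cox6b2, which rest on few fragments in the controls and with CpG-A.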
